A study of Mus musculus with 4 samples.

Results

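The genes described here encode the cytosolic and mitochondrial chaperones of the mouse: the heat shock proteins linked to the transcription factor HSF1, their cochaperones, the CCT chaperonin and the chaperones of the mitochondrial matrix. They were taken by symbol from a list of 37 genes, of which 36 were found among the 21523 genes of the expression table; Hspa1a was not analysed here. The cells were RAW264.7, a mouse macrophage-like tumour line, grown in serum-supplemented DMEM. Cultures given 0.5 mM 1,5-anhydroglucitol (1,5-AG), a polyol that resembles glucose without its anomeric hydroxyl group, for 24 h (2 libraries) were compared with cultures labelled as untreated (2 libraries), for which no culture time is given. All 4 libraries come from this single line, and no label says that replicates were separate cultures, so p-values measure the spread between libraries, which may be technical. In bulk RNA, fewer cells expressing a gene and less RNA per cell cannot be told apart.

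Chaperones bind unfolded or partly folded proteins and let them fold. HSP70 proteins work in cycles of ATP hydrolysis that J-domain proteins start and nucleotide exchange factors end, HSP90 takes over kinases and receptors with the help of cochaperones, and the ring-shaped CCT complex folds actin and tubulin. HSF1 turns on the inducible members of these families when unfolded proteins accumulate, by binding heat shock elements, which are repeats of GAA and its complement TTC in alternating orientation. In mitochondria, mortalin (Hspa9) pulls proteins in and the HSP60 and HSP10 ring (Hspd1 and Hspe1) folds them.

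The libraries were deep and alike in kind. Gene-assigned fragments recovered from the FPKM values numbered 14616556 and 15112965 in the 1,5-AG libraries, against 15163807 and 16228673 in the control libraries. FPKM scales fragments by exon length and library size, so levels can be compared between genes. The 7 macrophage markers examined summed to 3854 and 3768 FPKM in the 1,5-AG libraries, against 5361 and 5231 FPKM in the control libraries, and Lyz2, the lysozyme of macrophages, made up most of that sum in each library. The markers of T cells, B cells, fibroblasts, epithelium and neutrophils that were found in the table (8 of 20) reached at most 0.394 FPKM, that of S100a8. The part of these macrophage genes in the chaperone values was not tested.

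Differences in the chaperone genes were small. The 35 genes with a mean of at least 1 FPKM were tested with limma, a linear model that pools variance across all genes, on log2(FPKM + 1), and fold changes are 1,5-AG minus control on that scale. None of the 35 passed at a Benjamini-Hochberg adjusted p of 0.05 in limma, against 1.46% of all genes tested (162 of 11120), of which 0.809% were higher and 0.647% lower. At an unadjusted p under 0.05 there were 18 higher and 1 lower with 1,5-AG, together 54.3% of the 35, against 18.2% of all genes (9.15% higher and 9.04% lower). That count of 19 was 10 under quantile normalization, 9 under cyclic loess and 9 without limma's variance trend, while the count over all genes, 2023, was 1935, 1954 and 1853. It was 7 without 1,5-AG replicate 1, 8 without 1,5-AG replicate 2, 8 without control replicate 1 and 15 without control replicate 2, against 1408, 1525, 1619 and 1701 over all genes. In 25 of the 35 both 1,5-AG libraries lay above both control libraries, against 24.2% of all genes, and in 5 both lay below, against 25.4% of all genes (49.6% for either direction). The sign was positive in 28 and negative in 7, against 49.1% and 50.9% of all genes. The median log2 fold change of the 35 was 0.11, against -0.00 for all genes tested, and their range ran from -0.22 to 0.20. Under voom, which models the recovered fragments, 11 of the 35 passed and all 11 were higher with 1,5-AG, against 3.64% of genes called higher and 4.64% called lower (8.28% in all). Voom was scaled by library size alone, so the lean of abundant genes to the 1,5-AG side, described further on, was not removed.

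**Figure D1:**
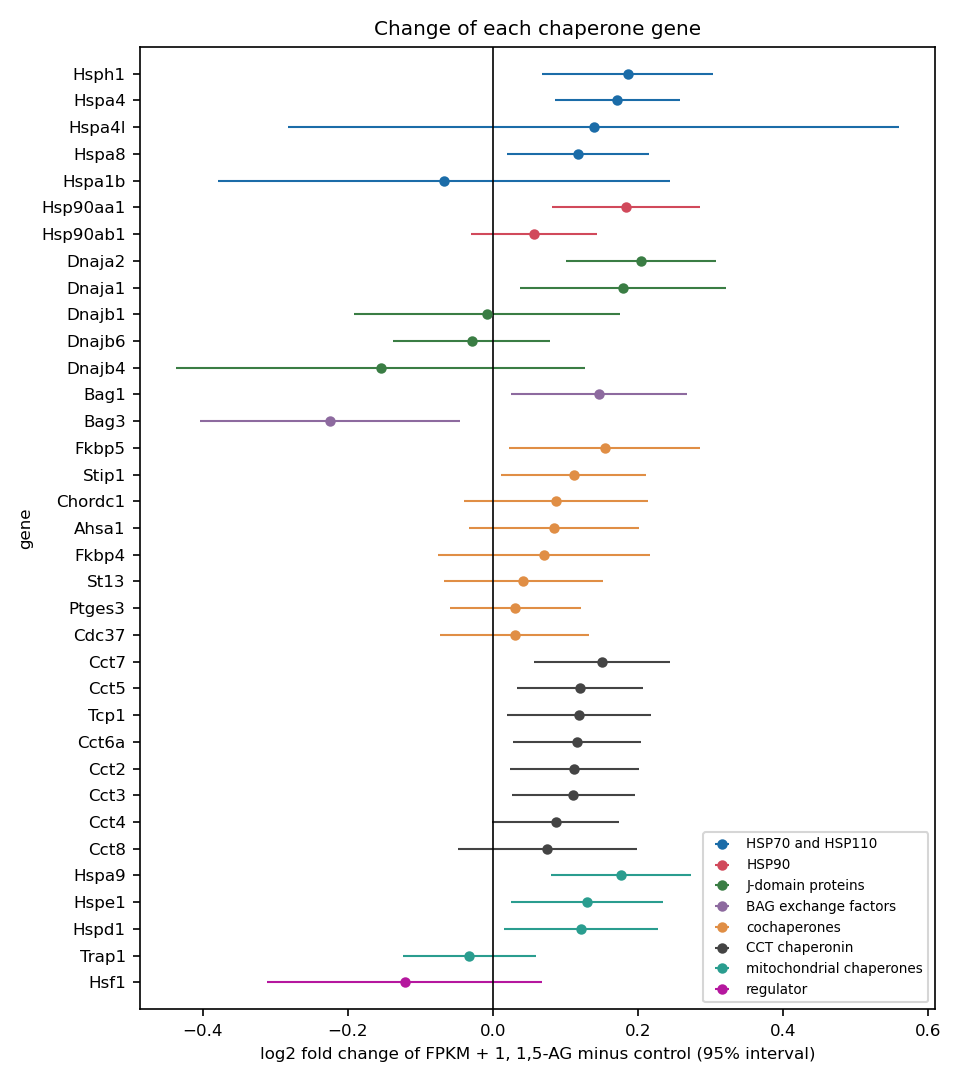
Log2 fold change of FPKM + 1 (x axis, 1,5-AG minus control) of the 35 tested chaperone genes (y axis, ordered by class and coloured by it); points are limma estimates and bars 95% intervals before adjustment, from 2 libraries per group. The 8 CCT subunits sit in a narrow band between 0.08 and 0.15, while Bag3, Dnajb4 and Hsf1 lie left of 0 and the bars of the weakly expressed Hspa4l and Hspa1b are wide.

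The RNA of Hsf1, the regulator of the family, lay near the middle of the genes tested by mean level (rank 5919 of 11120), below most of the listed chaperones. Hsf1 had 7.77 and 7.45 FPKM in the 1,5-AG libraries, against 8.91 and 7.85 FPKM in the control libraries. The groups did not overlap, but the gap between the closest libraries was small, and the log2 fold change of -0.12 (SE 0.07, 95% interval -0.31 to 0.07) did not pass limma's test (adjusted p = 0.464).

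The promoter windows of RefSeq (GRCm38.p6, the mm10 build), which surround the transcript starts, were searched for exact letters of a heat shock element. The patterns, which cover both strands, were GAANNTTCNNGAA and its reverse complement TTCNNGAANNTTC. Windows were at hand for 30 of the 37 genes, and those of 5 genes held a match, against 0.662% of all genes with a window. The matches are printed here with a few flanking bases, 5′ to 3′ on the strand of the gene, with the matched bases in capitals; overlapping matches are merged. The match of Hspe1 (chr1:55088053-55088082, plus strand) lies between divergent RefSeq starts of Hspe1 and Hspd1, so the same bases on the minus strand are the match of Hspd1. That of Dnajb6 is at chr5:29735844-29735872 (plus strand), that of Hsph1 at chr5:149636280-149636308 (minus strand) and that of Chordc1 at chr9:18292260-18292288 (plus strand). In GENCODE M21 each of the 4 places lies in the first exon of at least 1 transcript of Hspd1, Dnajb6, Hsph1 or Chordc1, and that of Dnajb6 also in Gm5129 on the opposite strand.
Hspe1: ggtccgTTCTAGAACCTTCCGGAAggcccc
Dnajb6: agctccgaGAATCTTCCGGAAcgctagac
Hsph1: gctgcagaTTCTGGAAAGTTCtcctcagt
Chordc1: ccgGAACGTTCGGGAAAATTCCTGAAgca

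A match in these letters is a description of the window and not a bound site. The absence of a match does not show that a gene lacks an element, since imperfect or more distant repeats were not searched. The windows of Hspa1b, Hspb1, Dnajb1 and Bag3 held no match. Hspa8, Hsp90aa1, Hsp90ab1, Hspa9, Hsf1, Cct4 and St13 had no window. The 5 genes with a match had a median log2 fold change of 0.12, from -0.03 (Dnajb6) to 0.19 (Hsph1), with 4 of 5 positive. Hspd1 and Hspe1 among them share the same match, and the median is the value of Hspd1. The 23 tested genes whose windows held none had a median of 0.11, from -0.22 to 0.20, with 18 of 23 positive. The difference between these sets was not tested. The shorter repeat GAANNTTC or its reverse complement TTCNNGAA, which is part of every longer match, was found in the windows of 16 of the 30 genes, against 17.0% of all genes with a window.

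Hspa1b and Hspb1, which heat shock induces strongly in many cells, were at low levels in both groups. Hspa1b, the stress-inducible HSP70, had 3.17 and 3.12 FPKM in the 1,5-AG libraries, against 3.83 and 2.90 FPKM in the control libraries. The groups overlapped, and its level was far below that of Hspa8 (ratio 0.0107 and 0.0100 in the 1,5-AG libraries, against 0.0136 and 0.0104 in the control libraries). Hspa1a was not analysed, and the labels do not state how reads that match several places were assigned, so this level of Hspa1b is uncertain. Hspb1, the small heat shock protein HSP25 of the mouse, had 1 and 0 fragments in the 1,5-AG libraries, against 1 and 1 in the control libraries. A count of 0 allows up to 3 fragments, or 0.193 FPKM in that library, so Hspb1 was at or under the floor in every library and did not enter the test.

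Bag3 and Dnajb1, both inducible partners of HSP70, were not higher with 1,5-AG. Bag3, a nucleotide exchange factor that directs HSP70 clients to autophagy, had 15.2 and 14.2 FPKM in the 1,5-AG libraries, against 18.3 and 16.4 FPKM in the control libraries. Both 1,5-AG libraries were lower, and its log2 fold change of -0.22 (SE 0.07, 95% interval -0.40 to -0.05) was the largest in absolute size among the 35 genes, although it did not pass limma's test (adjusted p = 0.197). Dnajb1, the J-domain protein HSP40, had 11.8 and 13.03 FPKM in the 1,5-AG libraries, against 13.07 and 11.9 FPKM in the control libraries, a log2 fold change of -0.01 with a 95% interval of -0.19 to 0.18.

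Hspa8, Hspa4 and Hsph1 were higher in both 1,5-AG libraries than in both control libraries, and none passed. Such a separation was found in 24.2% of all genes and 46.4% of those with a mean of at least 50 FPKM, where Hspa8 and Hspa4 lie. Hspa8 (Hsc70), the constitutive cytosolic HSP70, had 296 and 311 FPKM in the 1,5-AG libraries, against 281 and 278 FPKM in the control libraries (log2 fold change 0.12, SE 0.04, limma adjusted p = 0.212). Hspa4, an HSP110-type exchange factor on chromosome 11 (53259814 to 53300457, mm10), had 107 and 109 FPKM in the 1,5-AG libraries, against 95.8 and 95.6 FPKM in the control libraries. This was a 12.8% higher mean, and with a log2 fold change of 0.17 (SE 0.03, 95% interval 0.09 to 0.26) Hspa4 shared the lowest adjusted p of the 35 genes in limma, 0.0918. Hsph1, the inducible HSP110, had 31.0 and 30.4 FPKM in the 1,5-AG libraries, against 27.6 and 26.2 FPKM in the control libraries (0.19, SE 0.05, limma adjusted p = 0.137).

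In these 3 genes the groups were separate, whereas Hspa4l, another HSP110-type gene, was variable between the treated libraries. Hspa4l had 3.71 and 2.45 FPKM in the 1,5-AG libraries, against 2.53 and 2.80 FPKM in the control libraries, so that 1,5-AG replicate 1 was the highest and 1,5-AG replicate 2 the lowest of the 4. Its log2 fold change of 0.14 had an interval from -0.28 to 0.56.

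Of the 5 J-domain genes, Dnaja1 and Dnaja2 had positive differences and the 3 DNAJB genes negative ones, and none passed. Dnaja2 (chromosome 8, 85537633 to 85555344) had 75.7 and 75.0 FPKM in the 1,5-AG libraries, against 63.8 and 66.8 FPKM in the control libraries, a log2 fold change of 0.20 (SE 0.04, 95% interval 0.10 to 0.31, limma adjusted p = 0.0918). Dnaja1 had 32.0 and 32.2 FPKM in the 1,5-AG libraries, against 27.0 and 29.5 FPKM in the control libraries (0.18, SE 0.06, limma adjusted p = 0.193). In both the groups were separate with 1,5-AG higher, as in 24.2% of all genes and 46.4% of those with a mean of at least 50 FPKM, where Dnaja2 lies. Of the DNAJB genes other than Dnajb1, Dnajb6, which holds back the aggregation of polyglutamine proteins, had 19.8 and 19.8 FPKM in the 1,5-AG libraries, against 20.02 and 20.42 FPKM in the control libraries (-0.03, 95% interval -0.14 to 0.08). Dnajb4 was the lowest tested gene of the list, with 1.46 and 1.61 FPKM in the 1,5-AG libraries, against 1.72 and 1.92 FPKM in the control libraries (-0.15, 95% interval -0.44 to 0.13). Dnaja3, a mitochondrial DNAJA protein from the wider list described further on, had overlapping groups, with 27.8 and 27.7 FPKM in the 1,5-AG libraries, against 27.1 and 28.02 FPKM in the control libraries. The difference between the subfamilies was not tested.

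Bag1, an exchange factor that links HSP70 to the proteasome, lay on the other side of 0 from Bag3. It had 108 and 101 FPKM in the 1,5-AG libraries, against 95.8 and 92.4 FPKM in the control libraries (log2 fold change 0.15, SE 0.05, limma adjusted p = 0.209). The ratio of Bag3 to Bag1 was 0.141 and 0.141 in the 1,5-AG libraries, against 0.191 and 0.177 in the control libraries. This ratio was not planned, and its genes had separate groups in opposite directions, so the groups of the ratio had to be separate. With 2 libraries a group the smallest p of an exact two-sided permutation test is 0.3333.

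Of the cytosolic HSP90 pair, the inducible gene was the one further from 0. Hsp90aa1 (chromosome 12, 110690605 to 110702728), the inducible isoform, had 247 and 240.1 FPKM in the 1,5-AG libraries, against 209 and 219 FPKM in the control libraries. Its mean was 13.6% higher (log2 fold change 0.18, SE 0.04, 95% interval 0.08 to 0.29, limma adjusted p = 0.110). Hsp90ab1, the constitutive isoform and the most abundant gene of the list, had 1062 and 1058 FPKM in the 1,5-AG libraries, against 1001 and 1038 FPKM in the control libraries (0.06, 95% interval -0.03 to 0.14). The ratio of Hsp90aa1 to Hsp90ab1 was 0.232 and 0.227 in the 1,5-AG libraries, against 0.209 and 0.211 in the control libraries, a separation to which the same limit of 0.3333 applies.

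All 8 cochaperone genes had positive log2 fold changes, with a median of 0.08 and a range of 0.03 to 0.15, and none passed. Of all genes 49.1% were positive, and of those with a mean of at least 50 FPKM 68.2%. Under quantile and cyclic loess normalization 6 of the 8 were positive, with medians of 0.038 and 0.042. In 6 of the 8 the groups were separate with 1,5-AG higher, against 24.2% of all genes and 46.4% of those of at least 50 FPKM. Fkbp5, an immunophilin that is also a glucocorticoid target, had 9.51 and 9.47 FPKM in the 1,5-AG libraries, against 8.60 and 8.27 FPKM in the control libraries (0.15, SE 0.05, limma adjusted p = 0.218). Stip1 (HOP), which bridges HSP70 and HSP90, had 169 and 166 FPKM in the 1,5-AG libraries, against 159 and 151 FPKM in the control libraries (0.11, SE 0.04, limma adjusted p = 0.234). In both genes the groups were separate.

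The other cochaperones were closer to 0. Ahsa1, which activates the HSP90 ATPase, had 0.08, Chordc1 had 0.09 and St13, the HSP70-interacting protein HIP, 0.04, each with separate groups; the closest libraries of St13 were 34.95 FPKM with 1,5-AG and 34.79 FPKM in control. Ptges3, the HSP90 cochaperone p23, had 0.03 with separate groups, and its closest libraries were 128.8 FPKM with 1,5-AG and 128.7 FPKM in control. In Fkbp4, the larger HSP90 immunophilin (0.07), and in Cdc37, which brings kinases to HSP90 (0.03), the groups overlapped.

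The log2 fold changes of the CCT chaperonin genes lay in a narrow range. The complex has 8 different subunits, and in all 8 genes both 1,5-AG libraries were above both control libraries, against 24.2% of all genes and 46.4% of those with a mean of at least 50 FPKM, where all 8 lie. They had log2 fold changes from 0.08 (Cct8) to 0.15 (Cct7) around a median of 0.11. Cct2, the most abundant subunit, had 248 and 249 FPKM in the 1,5-AG libraries, against 226 and 233 FPKM in the control libraries (0.11, SE 0.03, limma adjusted p = 0.193). Cct7, the least abundant, had 82.3 and 84.7 FPKM in the 1,5-AG libraries, against 74.8 and 75.5 FPKM in the control libraries (0.15, SE 0.04, 95% interval 0.06 to 0.24, limma adjusted p = 0.131).

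Levels per length differed among the subunits by a similar factor in the 4 libraries. The highest subunit was 3.01 and 2.94 times the lowest in the 1,5-AG libraries, against 3.02 and 3.09 times in the control libraries. Cct5 had 208 and 208 FPKM with 1,5-AG, against 189 and 194 FPKM in control (0.12), and Cct8 186.2 and 190.5 FPKM with 1,5-AG, against 172 and 185.7 FPKM in control. The remaining 4, Tcp1 (the alpha subunit, 0.12), Cct3 (0.11), Cct4 (0.09) and Cct6a (0.12), averaged 97.5 to 112 FPKM with 1,5-AG and 91.8 to 104 FPKM in control. The gene model of Cct6a shares 12.5% of its exon bases with Psph on the opposite strand and that of Tcp1 shares 11.4% with Acat3. Of the listed genes, 10 have such overlaps, among them Cct8 (6.22% with Usp16) and Dnaja1 (7.05% with Smu1). The strand setting of the counting is not stated in the labels, so the values of these genes are uncertain.

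**Figure D2:**
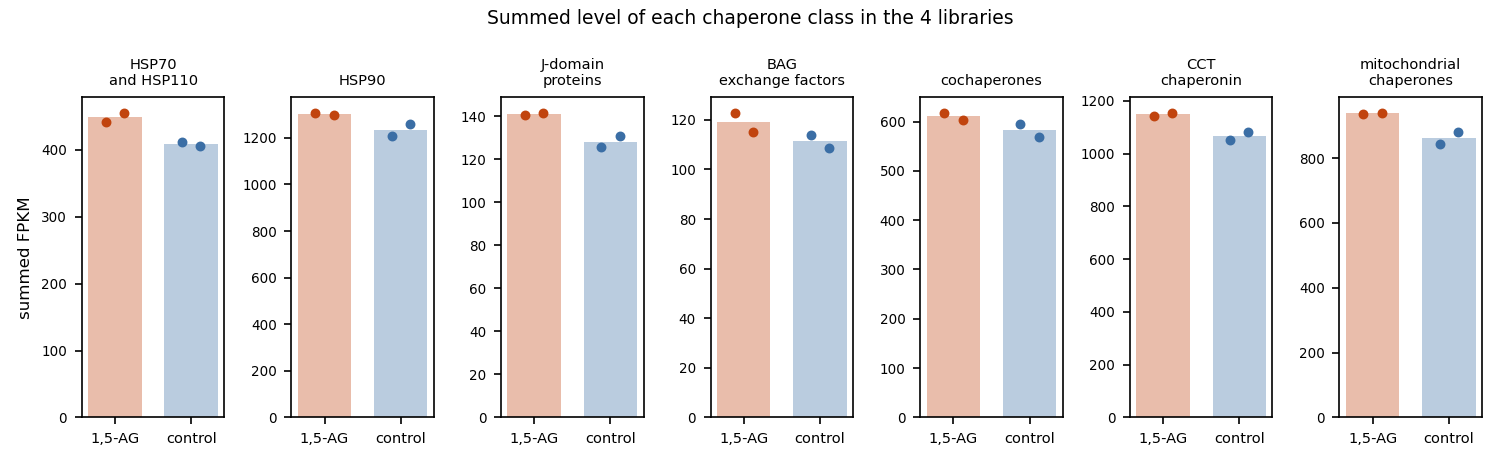
Summed FPKM (y axis, one scale per panel from 0) of the genes in each of the 7 chaperone classes that hold more than a single gene. Points are libraries, bars the means of 2 libraries, 1,5-AG left and control right. In all 7 panels both 1,5-AG points lie above both control points, the closest being the BAG factors at 115 with 1,5-AG against 114 in control, and all differences are small beside the level. Of single genes with a mean of at least 50 FPKM, 46.4% were separate in this direction.

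In 3 of the 4 mitochondrial chaperone genes both 1,5-AG libraries were above both control libraries, against 24.2% of all genes and 46.4% of those with a mean of at least 50 FPKM, where all 4 lie. Hspa9, mortalin, had 271 and 272 FPKM in the 1,5-AG libraries, against 234 and 246 FPKM in the control libraries (log2 fold change 0.18, SE 0.04, 95% interval 0.08 to 0.27, limma adjusted p = 0.105). Hspd1 (HSP60) had 449 and 459.9 FPKM in the 1,5-AG libraries, against 406 and 430.0 FPKM in the control libraries (0.12, SE 0.04, limma adjusted p = 0.223). Hspe1 (HSP10) had 122 and 117 FPKM in the 1,5-AG libraries, against 108 and 111 FPKM in the control libraries (0.13, SE 0.04, limma adjusted p = 0.200). These neighbours share the divergent promoter shown above, and their ratio held level, with 3.67 and 3.94 FPKM of Hspd1 per FPKM of Hspe1 in the 1,5-AG libraries, against 3.77 and 3.88 in the control libraries. In GENCODE M21 the Hspd1 gene, on the minus strand, reaches to 55088243, past the Hspe1 start at 55088132. In these gene models their exons overlap by 112 bases on opposite strands, 7.60% of those of Hspe1, so the counts of the pair may not be independent.

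Trap1, the mitochondrial HSP90, did not go with them. It had 94.1 and 91.6 FPKM in the 1,5-AG libraries, against 95.5 and 94.5 FPKM in the control libraries (log2 fold change -0.03, 95% interval -0.12 to 0.06). The upper end of that interval, before adjustment, is under the estimates of Hspa9, Hspd1 and Hspe1, and the differences between these genes were not tested.

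Summed over the 36 genes, chaperones held 4720 and 4717 FPKM in the 1,5-AG libraries, against 4357 and 4443 FPKM in the control libraries, a mean 7.24% higher. In fragments this was 1.67% and 1.67% of the 1,5-AG libraries, against 1.54% and 1.57% of the control libraries. By class the summed means with 1,5-AG were 10.2% higher for the J-domain proteins, 9.80% for HSP70 and HSP110, 8.85% for the mitochondrial chaperones, 7.87% for CCT, 6.77% for the BAG factors, 5.63% for HSP90 and 5.02% for the cochaperones. The BAG sum follows Bag1, the more abundant gene, although Bag3 was lower, and the J-domain sum follows Dnaja2 and Dnaja1, although 3 of the 5 genes were negative and the class median was -0.01. The groups of all 7 sums were separate with 1,5-AG higher, against 24.2% of all genes taken singly. The share was 46.4% among genes with a mean of at least 50 FPKM, a level that all 7 sums exceeded. The classes of a single gene are not among these sums. The mean of Hsf1 differed by -9.19% with 1,5-AG, and Hspb1 was at or under the floor.

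**Figure D3:**
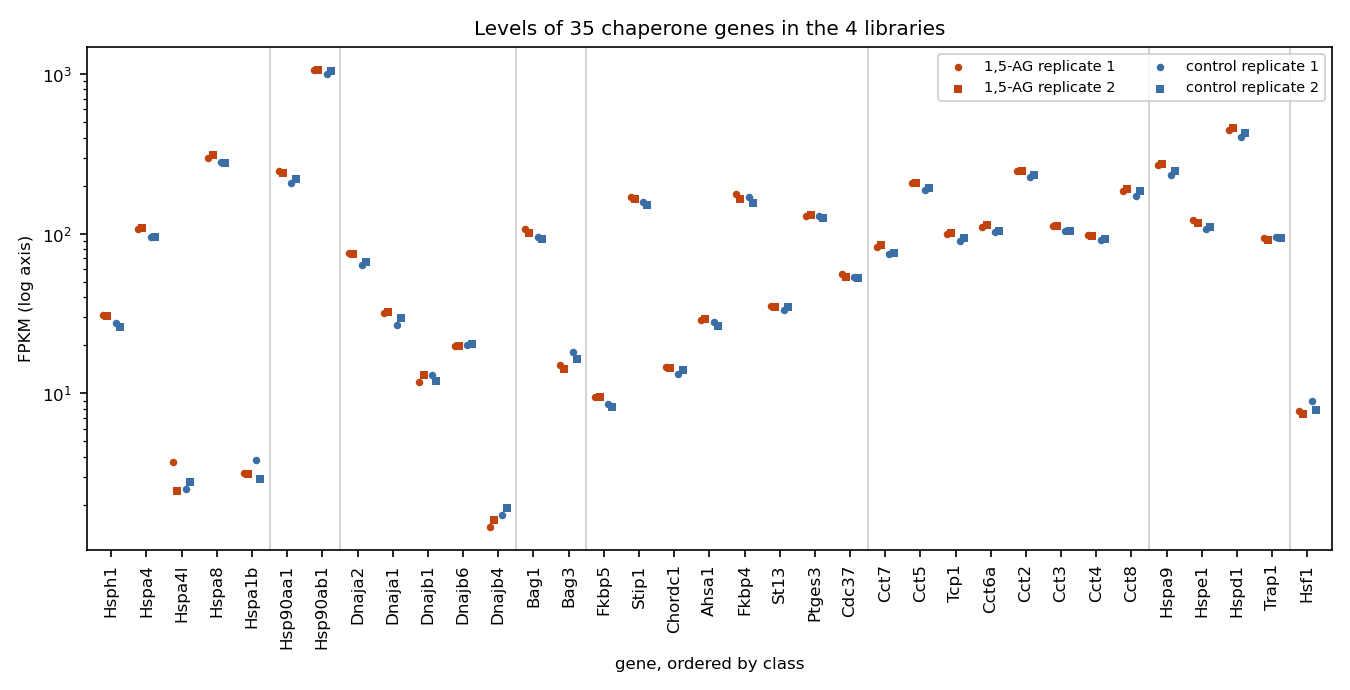
FPKM (y axis, log scale) of the 35 tested chaperone genes (x axis, ordered by class, vertical lines between classes) in each of the 4 libraries, 1,5-AG left of control. Levels span from under 2 FPKM (Dnajb4) to more than 1001 FPKM in 3 of 4 libraries and 1001 FPKM in the other (Hsp90ab1), and differences between groups are small beside differences between genes.

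The share of positive differences was larger among abundant genes. Of the 22 chaperone genes with a mean of at least 50 FPKM, 21 were positive (95.5%) with a median of 0.12. All genes tested at that level also leaned to the 1,5-AG side, with 722 of 1059 positive (68.2%) and a median of 0.05. Separate groups with 1,5-AG higher were found in 19 of the 22, against 46.4% of the 1059. At an unadjusted p under 0.05 in limma there were 15 higher and 0 lower of the 22, against 33.7% of the 1059 (257 higher and 100 lower). Of the 8 chaperone genes under 20 FPKM, 3 were positive with a median of -0.04, against 45.1% and a median of -0.01 for all 8324 genes in that range.

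The lean of abundant genes could be removed by scaling. After cyclic loess normalization, which removes a trend of the difference on level and was chosen after the data were seen, the median of all genes of at least 50 FPKM was 0.01 and that of the 22 chaperone genes 0.07, with 86.4% of them positive. Quantile normalization gave 0.00 and 0.07. Under both, the 8 CCT genes stayed positive, with medians of 0.07 and 0.06, while Cdc37 and Ptges3 changed sign, as did Dnajb1 under cyclic loess. These level cuts were chosen after the values were seen.

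**Figure D4:**
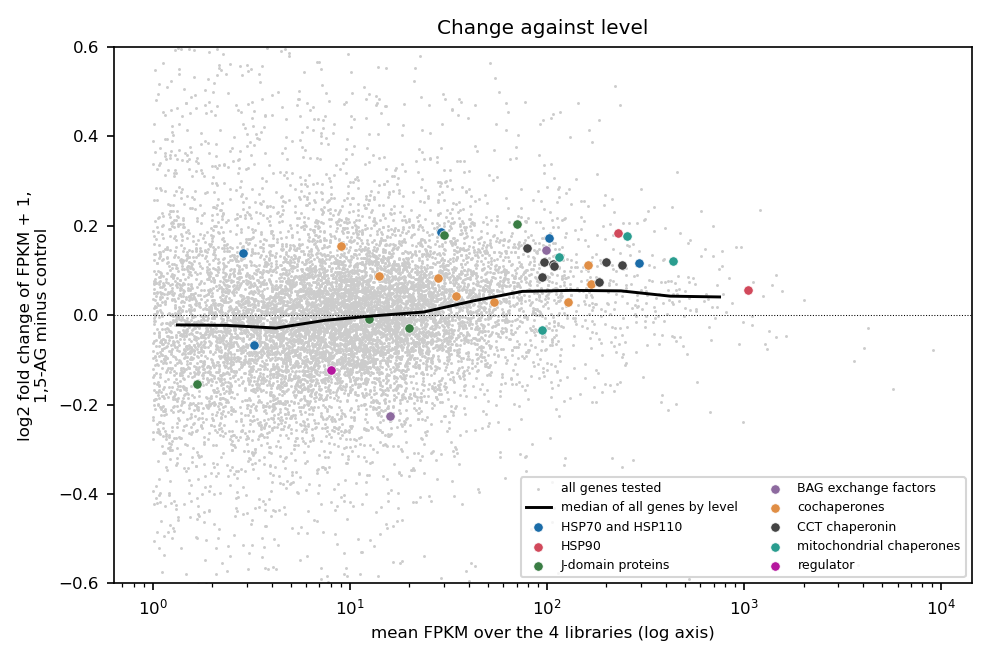
Log2 fold change of FPKM + 1 (y axis, 1,5-AG minus control) against mean FPKM over the 4 libraries (x axis, log scale) for all 11120 genes tested (grey) and the 35 chaperone genes (coloured by class); the black line is the median of all genes in bins of level, and 220 genes beyond 0.6 in either direction are not drawn. The line climbs to about 0.05 above 50 FPKM, and most abundant chaperone genes lie above it.

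Several members have near-identical copies elsewhere in the genome, and these were listed with fragments of their own. In GENCODE M21, 7 of the genes (Hspa8, Hsp90aa1, Dnaja1, Dnajb6, Ptges3, Hspd1 and Hspe1) had such copies in the table, defined as a transcript of another gene aligned at 95% identity or more over at least 80% of its length and 400 bases. The copies held between 0.716% and 38.0% of the fragments of their parent gene in a library. The labels do not state how reads that match several places were assigned, so parent and copy values are both uncertain.

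All 10 copies with a mean of at least 1 FPKM had positive log2 fold changes, from 0.10 to 0.50, against 49.1% of all genes positive. In 9 of them the groups were separate with 1,5-AG higher, against 24.2% of all genes, and none passed limma's test. Ptges3-ps, whose 480 bases align to Ptges3 at 100% identity, had 191 and 190.2 FPKM in the 1,5-AG libraries, against 168 and 168 FPKM in the control libraries (0.18, limma adjusted p = 0.0801), while Ptges3 itself had 0.03. AC117239.2, 99.0% identical to Hspe1, had 119 and 127 FPKM in the 1,5-AG libraries, against 101 and 105 FPKM in the control libraries (0.25, limma adjusted p = 0.0855). GENCODE M21 gives AC117239.2 as protein coding.

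Hspd1-ps3 had 25.1 and 28.1 FPKM in the 1,5-AG libraries, against 19.4 and 21.9 FPKM in the control libraries (0.35, limma adjusted p = 0.126). Gm12346, a copy of Hsp90aa1, had 379 and 446 fragments in the 1,5-AG libraries, against 296 and 326 in the control libraries (0.44, limma adjusted p = 0.0716). The part of shared reads in the values of the 7 parents was not tested.

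Beyond the 37 genes, a wider list of 80 genes of the same pathways (other HSP70, J-domain and BAG proteins, prefoldin, tubulin-folding cofactors, HSP90 partners and mitochondrial proteases) was read from the same fit, and 71 were tested. None passed limma's test, with 6 higher and 2 lower at an unadjusted p under 0.05, or 11.3% against 18.2% of all genes. Their median log2 fold change was 0.03, with 49 of 71 positive, against 49.1% of all genes. Groups were separate with 1,5-AG higher in 22 (31.0%), against 24.2% of all genes, and with 1,5-AG lower in 5 (7.04%), against 25.4%. Dnajb14, a J-domain protein of the endoplasmic reticulum membrane, had 3.59 and 3.55 FPKM in the 1,5-AG libraries, against 4.95 and 5.43 FPKM in the control libraries (-0.44, SE 0.07, limma adjusted p = 0.0721).

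The next 3 by p were all higher in both 1,5-AG libraries. Hspa13, an HSP70-like ATPase, had 10.5 and 10.2 FPKM in the 1,5-AG libraries, against 8.71 and 8.92 FPKM in the control libraries (0.21, limma adjusted p = 0.125). Pfdn4, a subunit of prefoldin, which hands actin and tubulin to CCT, had 8.90 and 9.37 FPKM in the 1,5-AG libraries, against 7.82 and 7.73 FPKM in the control libraries (0.21, limma adjusted p = 0.147). Nudcd3, an HSP90 cochaperone of the NudC family, had 17.0 and 17.7 FPKM in the 1,5-AG libraries, against 15.8 and 15.3 FPKM in the control libraries (0.15, limma adjusted p = 0.206).

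The calls depended on the set of genes tested and on the model. With limma run on the 9439 protein coding genes alone, 4 of 34 chaperone genes passed, all higher with 1,5-AG: Dnaja2 (adjusted p = 0.0398), Hspa9 (0.0469), Hspa4 (0.0477) and Hsp90aa1 (0.0480), against 1.73% of genes called higher and 2.64% called lower (4.36% in all). That set leaves out Cct6a, which GENCODE M21 gives as a processed transcript. Voom called these 4 and also Hsph1, Cct7, Dnaja1, Hspa8, Hspd1, Cct5 and Cct3, with adjusted p from 0.00140 (Hspa9) to 0.0485 (Cct3) and log2 fold changes of 0.11 to 0.21. In the wider list voom called Dnajb14 lower and Hspa13 higher, and limma on protein coding genes called Dnajb14 lower. The voom and protein coding calls were not repeated with libraries left out or with the lean of abundant genes removed.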

How the data were processed

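Gene expression in 4 libraries of RAW264.7 cells was deposited by the authors as FPKM, with 1 column per library. The submitters' processing notes name build mm10 and the tools HTSeq, Cufflinks, HISAT2 and Trimmomatic, but for their roles and versions, the strand setting and the annotation release the labels are silent. A stranded mRNA kit was used on Trizol-extracted RNA, per the labels' protocols. Identifiers were matched to GENCODE M21 (21508 of 21523), and of rows that share a symbol the highest was used (8 left out). FPKM multiplied by merged exon length gave whole fragments within 0.02 in all libraries for 99.4% of matched genes; 3 fragments in 2 kb of exon correspond to 0.0924 to 0.103 FPKM, for counting error only.

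Values of log2(FPKM + 1) were tested in limma 3.58.1 (R 4.3.3), with group as the only term, a variance trend (lmFit, eBayes) and a filter at a mean of 1 FPKM, two-sided, with Benjamini-Hochberg adjustment over 11120 genes and a threshold of 0.05. The fit was also run on simulated data whose known changes were larger than those of the chaperone genes, so that run does not measure power for changes of their size. Voom on fragments, other scalings, filters and pseudocounts, a replicate block and fits without 1 library were alternatives. Cyclic loess scaling, the level cuts at 20 and 50 FPKM and the search for copies were added after the data were seen. The ratio of Bag3 to Bag1 was not among the planned ratios. Copies were found with blastn 2.17.0+. Values in every library are given for the 12 genes with the largest absolute change and for fixed lead genes, the 4 of the wider list with the smallest p, and the highest and lowest CCT subunit; further genes were named after their values were seen. The members, lists and tests were chosen with earlier results of these data known.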

Additional observations from a re-analysis of the deposited data

How the results depend on the processing

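In all, 162 genes passed the threshold. There were 0 without a filter on low values, 360 when a mean of 5 FPKM was required, 5 without the variance trend, 915 with voom, 412 among protein coding genes, 310 with the replicate block, and 2 to 10 with 1 library left out, in fits where a group of 1 library is assumed to vary like the other. The number of chaperone genes that passed, 0, was 11 with voom and 4 among protein coding genes, and 0 in the other settings; that of the wider list, 0, was 2 with voom and 1 among protein coding genes. The replicate block gave 0 in both lists. Since so few genes pass with 1 library left out, a count of 0 there says nothing about stability. The deviations of libraries with the same number had a correlation of 0.0124 over genes, and no label says that a number marks a shared culture or day.

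The median log2 fold change of the chaperone genes, 0.11, was 0.065 under quantile and 0.067 under cyclic loess normalization, and 0.093 to 0.12 with 1 library left out. These scalings gave medians of 0.064 and 0.068 for CCT, 0.038 and 0.042 for cochaperones, and 0.091 and 0.078 for mitochondrial chaperones, and cyclic loess gave 0.071 for HSP90. The median of HSP70 and HSP110, 0.14, was 0.17 with a pseudocount of 0.1, 0.17 with the 5 FPKM filter, 0.12 under quantile normalization, 0.17 with voom and 0.13 to 0.16 with 1 library left out. That of the J-domain proteins, -0.01, was 0.086 with the 5 FPKM filter, which removes Dnajb4, and -0.029 to 0.056 with 1 library left out.

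Over single genes and settings, 497 values kept their sign and side of the threshold, 15 passed it and 9 changed sign. Cdc37 was -0.0049 under quantile and -0.0061 under cyclic loess normalization, and Ptges3 -0.033 and -0.016. Dnajb1 was 0.00077 under cyclic loess. With 1 library left out, Dnajb1 ran from -0.073 to 0.056, Hspa4l from -0.085 to 0.36 and Hspa1b from -0.22 to 0.087. The cause was not tested.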
